A study of Homo sapiens with 6 samples.

Results

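The genes followed here act in proteolysis at the cell surface, and were read in clones of MiaPaCa2, an established human line of pancreatic ductal adenocarcinoma cells. They are SPINT1, SPINT2, ST14, PRSS8, TMPRSS4, PLAU, PLAUR and PLAT. The 8 were chosen by symbol for their function, with earlier results of these data known. All 8 were found among the 26334 gene symbols of the deposited count table. The 6 libraries came from 3 wild-type clones (WT) and 3 clones deleted for ZEB1 with CRISPR-Cas9 (ZEB1-KO), ZEB1 being a zinc-finger repressor of epithelial genes. WT clones had been electroporated with the plasmid pSpCas9-2A-GFP (px458), which encodes Cas9 and GFP, and ZEB1-KO clones with ZEB1.gRNA-pSpCas9-2A-GFP, which adds a ZEB1 guide RNA. Clones of both groups were obtained as sorted GFP+ cells, so that Cas9 and GFP were given to the controls too. The ZEB1-KO clones are called knockout clones here, and clone 1 is the library labelled replicate 1. Each library is 1 clone of 1 cell line, so the spread between replicates is a spread between clones, and whether separate cultures of a clone vary less was not measured. Libraries were made from 2000 lysed cells grown in DMEM with 10% serum, glutamine and antibiotics, by SMART-Seq2, which primes polyadenylated RNA with oligo(dT) and keeps no strand information.

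Surface serine proteases cut proteins next to the cell that makes them. ST14 encodes matriptase, a transmembrane protease of epithelial cells that activates pro-HGF, PAR2 and the zymogen of prostasin. Prostasin, the product of PRSS8, is held in the membrane by a lipid anchor and works in a mutual activation loop with matriptase. TMPRSS4 encodes another protease with a transmembrane anchor. SPINT1 and SPINT2 encode HAI-1 and HAI-2, membrane-bound inhibitors with Kunitz domains that block matriptase and prostasin. In the plasminogen branch, PLAU encodes urokinase (uPA) and PLAT the tissue-type activator (tPA), which both convert plasminogen to plasmin, and PLAUR encodes uPAR, the receptor that holds uPA at the surface.

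Total counts ran from 18909305 to 42876693 per library, and 3 counts, taken as the floor of detection, were worth between 0.0687 and 0.15 CPM (a library's counts scaled to a common total after TMM correction). Such floors and all counting intervals cover counting error only, since the amplified reads carry no molecular identifiers. ZEB1 itself had 1486, 1011 and 830 counts in WT, and 67, 140 and 369 counts in knockout clones, so that its RNA was still counted in each knockout clone (difference of -2.43 on the log2 scale, adjusted p = 0.0930 from edgeR's quasi-likelihood test). The epithelial markers KRT8 and KRT18 were abundant, and the 6 epithelial markers examined summed to between 2152 and 3190 CPM in WT and between 4064 and 5282 CPM in knockout libraries, while CDH1 and EPCAM had at most 4 counts in any library. Markers of blood, endothelial, fibroblast, acinar and islet cells summed to at most 3.89 CPM per cell type in any library, with the islet markers INS, GCG and CHGA at 0.

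SPINT2, the gene for the inhibitor HAI-2, stood out among the 8. It had 14.9, 7.13 and 23.6 CPM in WT clones 1 to 3, and 86.3, 129 and 141 CPM in knockout clones 1 to 3. Every knockout clone thus lay above every WT clone, and the lowest knockout clone was clone 1. The summed epithelial markers, given above, also lay higher in every knockout clone than in any WT clone. Most of that sum came from KRT8 and KRT18, while KRT7, KRT19, CDH1 and EPCAM overlapped between the groups. The part of these markers in the SPINT2 difference was not tested. The mean was 15.2 CPM ± 8.25 in WT and 118.9 CPM ± 28.9 in knockout clones (SD, n = 3 each). The knockout clones were 7.83-fold higher, with a 95% interval from 3.92 to 15.6, but SPINT2 did not pass the threshold of 0.05 (adjusted p = 0.0544 from edgeR's quasi-likelihood test). PLAU, the urokinase gene, had nearly equal means in both groups, and PLAUR, the gene for its receptor, was lower in the knockout clones, also without passing the test. The matriptase, HAI-1 and TMPRSS4 genes were at or next to 0 counts in all 6 libraries.

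**Figure D1:**
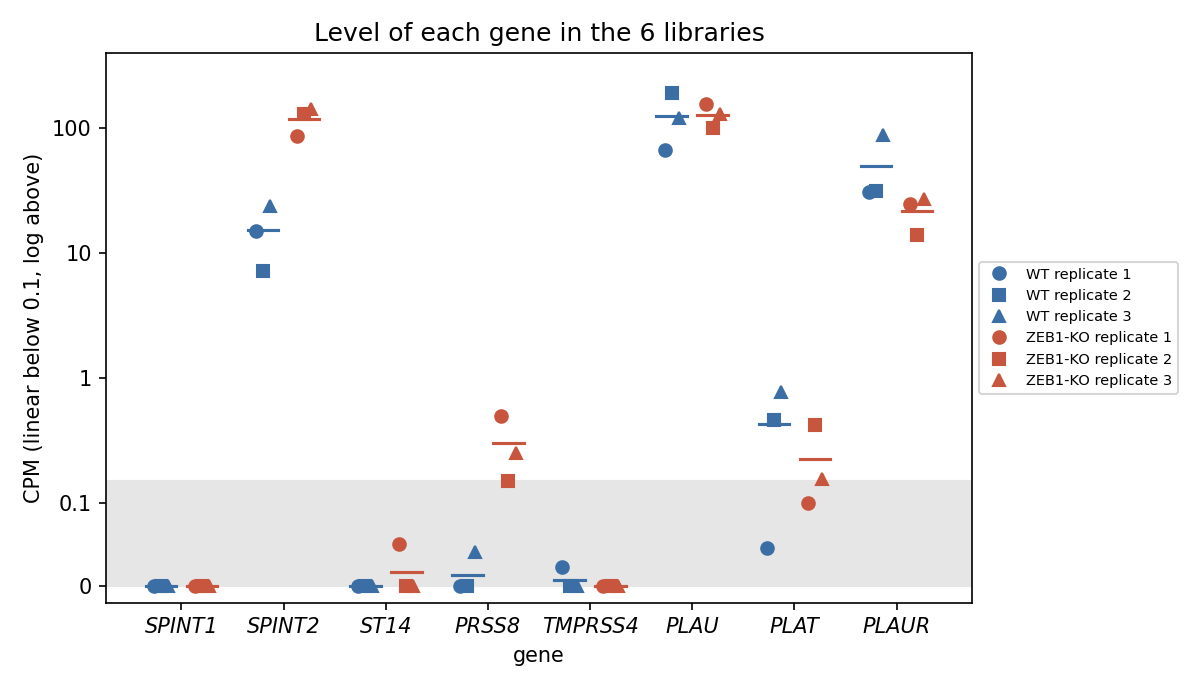
CPM of each of the 8 genes (x axis) in each library, on an axis that is linear below 0.1 CPM and logarithmic above, with a bar at the mean of each group of 3; the shaded band reaches up to the highest floor of 3 counts, 0.15 CPM. SPINT2 is the gene whose groups lie farthest apart among those above the band, and SPINT1, ST14 and TMPRSS4 stay inside it in all 6 libraries.

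ZEB1 is known to bind the E-box letters CACCTG, and promoter sequence was examined for them because the groups differ in ZEB1. RefSeq windows on GRCh38.p14 were at hand for SPINT1, PLAU and PLAUR, and SPINT2, ST14, PRSS8 and TMPRSS4 had no entry in that table. PLAT was left out of this examination, so nothing is said here of its promoter. In the 250 bases before a gene start, 17.5% of 35116 windows held CACCTG or its reverse complement CAGGTG. SPINT1 and PLAU have 2 listed starts each, and for each gene 1 of the 2 windows held the letters once, and PLAUR has 1 window without them. The related CAGGTA or TACCTG, held by 7.99% of windows, was in none of the 5 windows. The matched stretches of 30 bases are shown 5′ to 3′ on the plus strand with the E-box in capitals, for SPINT1 at chr15:40844439-40844468 with the box beginning 26 bases before the start, and for PLAU at chr10:73910887-73910916 with the box beginning 233 bases before the start.
SPINT1: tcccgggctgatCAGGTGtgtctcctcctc
PLAU: caggcccccggcCAGGTGcatgggaggaag
SPINT1 had 0 counts and PLAU between 2908 and 6200 counts whether or not ZEB1 was deleted. A match of letters is a description of the sequence, and binding of ZEB1 was not measured in these libraries.

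The comparison of ZEB1-KO with WT clones asked whether deletion of ZEB1 goes with another level of these genes. Of the 8 genes, 4 had enough counts to enter the fit (SPINT2, PLAU, PLAUR and PLAT). Of these, 0 of 4 passed an adjusted p of 0.05 in edgeR's quasi-likelihood test, 2 had an unadjusted p below 0.05, and DESeq2 and edgeR's likelihood ratio test called 1 each, SPINT2. Over all 13659 genes tested, 0.176% passed the adjusted threshold, 0.117% as higher and 0.0586% as lower in knockout clones, and an unadjusted p below 0.05 was found for 17.7%. The split of 16 higher and 8 lower genes (66.7% higher) became 3 and 10 (23.1%) without WT clone 1, 82 and 19 (81.2%) with limma on log2(TPM + 1), and 11 and 9 (55%) with the replicate number as a block. The share called by DESeq2 was 7.12% of the genes to which it gave an adjusted p, and the likelihood ratio test called 4.52%. The median log2 fold change was -0.37 for the 4 genes in the fit and -0.008 for all genes tested.

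SPINT2 missed the threshold by a small margin. On the log2 scale the difference was 2.97 (SE 0.44), and the quasi-likelihood test gave an adjusted p of 0.0544, its p ranking 28 of 13659. Groups without overlap and with the knockout clones higher occurred in 11.9% of all genes tested. The adjusted p was 0.0394 with limma-voom, 0.0306 with limma on log2(TPM + 1) and 1.25e-09 with DESeq2, and it was below 0.05 in 9 of 19 alternatives, with log2 fold changes from 2.64 to 3.43 over all 19. Leaving out 1 library at a time gave adjusted p-values from 0.0652 (without WT clone 2) to 0.128 (without WT clone 3). In the authors' deposited table, SPINT2 is listed at 2.96 on the log2 scale with adjusted p = 1.21e-07 from a likelihood ratio test, in which 4.75% of the genes listed passed 0.05, 2.82% as higher.

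The RNA levels of ZEB1 and SPINT2 were set side by side in each clone. Knockout clone 3 kept 11.5 CPM of ZEB1 and had the highest SPINT2 level of 141 CPM. Knockout clones 1 and 2 had 3.34 and 3.46 CPM of ZEB1 and 86.3 and 129 CPM of SPINT2. With 3 clones this is a description without a test. Counts of ZEB1 RNA do not show how much working ZEB1 protein a clone had, and that was not measured in these libraries. Among WT clones the ZEB1 level was nearly even, from 31.2 to 34.0 CPM, while SPINT2 ranged from 7.13 to 23.6 CPM.

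SPINT2 lies on chromosome 19, and its nearest tested neighbours, in the gene order of RefSeq on GRCh38.p14, mostly had negative log2 fold changes. Of the 10 neighbours, 5 on each side, 1 had a positive log2 fold change, and the range was -1.82 to 1.15 with a median of -0.59. Among all 13659 genes tested, 6753 had a positive value. An unadjusted p below 0.05 in the quasi-likelihood test was found for 2 of the 10, against 17.7% of all genes tested. These 2 were PPP1R14A and DPF1, the gene with the positive value of 1.15. PPP1R14A, the closest tested gene on one side and the gene for an inhibitor of myosin phosphatase, had the most negative value. It stood at 35.7, 35.3 and 35.6 CPM in WT, and 13.4, 6.50 and 10.5 CPM in knockout clones, with an adjusted p of 0.0621 from the quasi-likelihood test. YIF1B, the closest tested gene on the other side, had a log2 fold change of -0.071. The neighbours of PLAU ranged from -0.38 to 0.41 and those of PLAUR, also on chromosome 19, from -0.57 to 0.54.

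**Figure D2:**
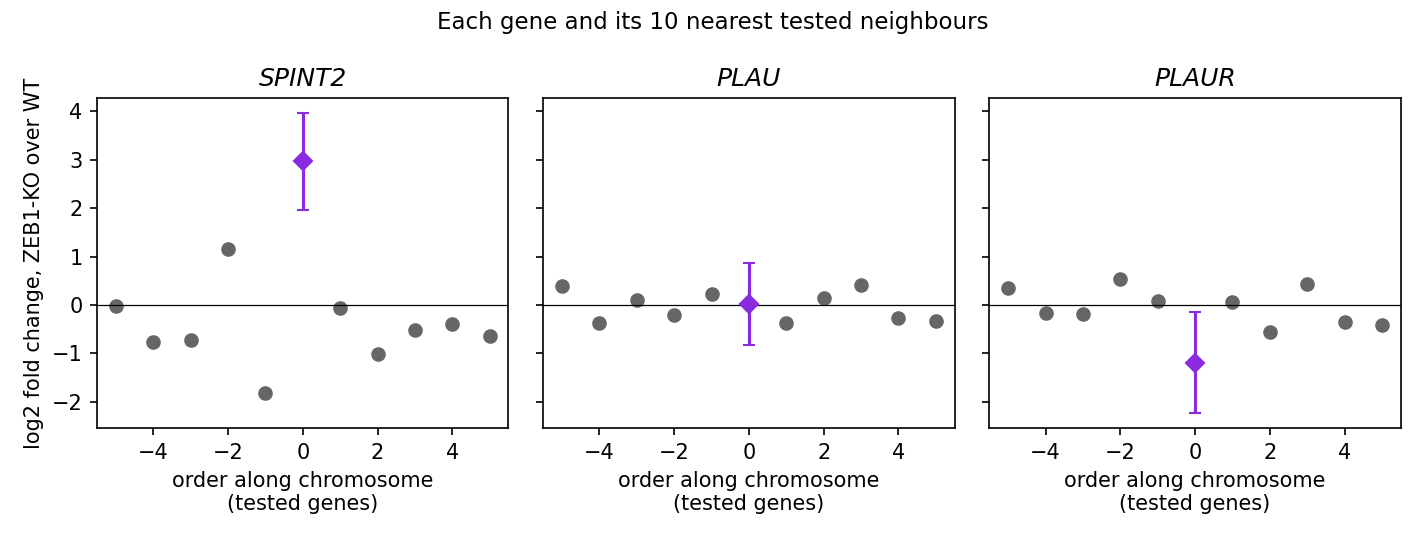
Log2 fold change (ZEB1-KO over WT) of SPINT2, PLAU and PLAUR (diamonds, with 95% intervals) and of the 5 nearest tested genes on each side (circles) by their order along the chromosome. The SPINT2 diamond at 2.97 sits above all 10 of its neighbours, whose median is -0.59.

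SPINT1, the gene for HAI-1, had 0 counts in all 6 libraries, as did 23.7% of the symbols in the count table. ST14, the matriptase gene, had 1 count in knockout clone 1 and 0 counts in the other libraries. TMPRSS4 had 1 count in WT clone 1 and 0 counts elsewhere. At most 1 count in every library was the case for 30.7% of all symbols and for these 3 of the 8 genes. With both groups at or under the floor of 3 counts per library, no difference between them was detectable at this depth for SPINT1, ST14 or TMPRSS4.

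PRSS8, the prostasin gene, was low but unevenly spread between the groups. It had 0, 0 and 1 counts in WT clones 1 to 3, and 10, 6 and 8 counts in knockout clones 1 to 3. All 3 knockout clones thus lay above the floor and all 3 WT clones below it. How often other genes outside the fit split in this way was not counted. The 24 counts against 1 gave a ratio of rates of 26.1, with an exact 95% interval from 4.26 to 1073 for counting error. The gene did not reach the minimum for the fit, and an exact two-sided permutation test of the CPM gave p = 0.1, the smallest value that 3 against 3 libraries allow. When genes of low counts were kept in the quasi-likelihood fit, its adjusted p was 0.110, and DESeq2 gave it an unadjusted p of 0.00542 and no adjusted p. Matriptase, the protease that activates prostasin, was not matched by a comparable count in the same knockout libraries, at 1, 0 and 0 counts of ST14.

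PLAU had the log2 fold change closest to 0 of the 4 genes in the fit. It had 66.6, 191 and 121 CPM in WT clones 1 to 3, and 155, 100.4 and 129 CPM in knockout clones 1 to 3. The lowest and the highest value both belonged to WT clones, with all knockout clones between them. The means were 126 CPM ± 62.5 in WT and 128 CPM ± 27.5 in knockout clones (SD, n = 3 each). The fold difference was 1.02 with a 95% interval from 0.567 to 1.82 (adjusted p = 0.979 from the quasi-likelihood test), so that differences of up to 1.82-fold lie within the error. In RefSeq on GRCh38.p14, PLAU overlaps the lncRNA gene C10orf55, and reads of a shared part cannot be told apart. How such reads were counted is not known, since the annotation and strand setting are not given. C10orf55 had between 40 and 81 counts against 2908 to 6200 for PLAU.

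PLAUR had 30.7, 31.3 and 87.5 CPM in WT clones 1 to 3, and 24.5, 13.9 and 27.1 CPM in knockout clones 1 to 3. The groups did not overlap in CPM, which was so with the knockout clones lower in 11.7% of all genes tested. In the deposited TPM they did overlap, with knockout clone 3 at 22.3 TPM and WT clone 2 at 20.2 TPM. WT clone 3 stood far above the other 2 WT clones. The log2 fold change was -1.19 with a 95% interval from -2.24 to -0.15, an unadjusted p of 0.0301 and an adjusted p of 0.225 from the quasi-likelihood test. Without WT clone 3 the log2 fold change was -0.50 (adjusted p = 0.566), so the size of the difference rested on that clone. Over 19 alternatives the value stayed negative, and the adjusted p ran from 0.0923 to 0.566. PLAUR overlaps the RefSeq pseudogene RN7SL368P and a lncRNA gene, and how reads of a shared part were counted is likewise not known. The authors' deposited table lists PLAUR at -1.20 on the log2 scale with adjusted p = 0.142.

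PLAT, the gene for the other plasminogen activator, was close to the floor. It had 2, 15 and 19 counts in WT, and 2, 17 and 5 counts in knockout clones, and clone 1 of each group was below 3 counts. The groups overlapped, and the log2 fold change of -0.77 had a 95% interval from -2.81 to 1.28 (adjusted p = 0.688 from the quasi-likelihood test). It was -0.038 without WT clone 3 and -1.61 without knockout clone 2. As a fold, the interval ran from 0.143 to 2.43.

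**Figure D3:**
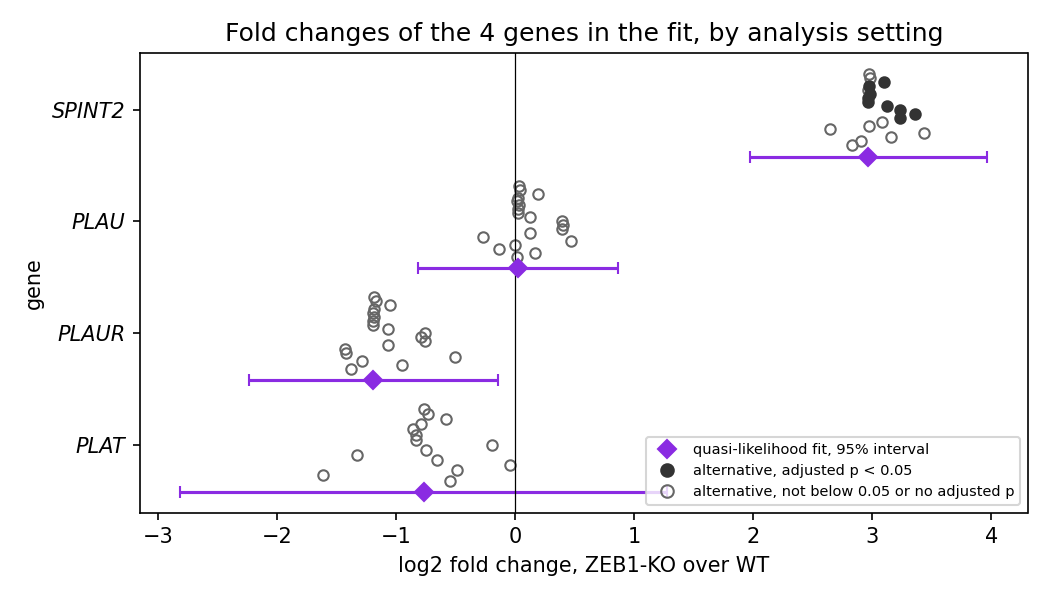
Log2 fold change (ZEB1-KO over WT, x axis) of the 4 genes in the fit: diamonds give the quasi-likelihood fit with its 95% interval, circles the alternatives, filled where the adjusted p was below 0.05. All 19 SPINT2 circles lie between 2.64 and 3.43, with 9 of them filled, while no circle of PLAU, PLAUR or PLAT is filled.

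Levels of different genes can be compared in TPM, which is scaled by gene length, and the deposited TPM table lists SPINT2, PLAU and PLAUR. In WT clones 1 to 3 SPINT2 had 12.8, 5.13 and 18.3 TPM, below PLAU and PLAUR in each library. In knockout clones 1 to 3 it had 77.8, 132 and 129.9 TPM, which was above PLAUR in all 3 clones and above PLAU in clones 2 and 3. Its rank among the 11013 genes of that table ran from percentile 45.8 to 68.3 in WT and from 86.1 to 89.8 in knockout libraries. PLAU was at 38.4, 92.2 and 62.8 TPM in WT and 93.8, 68.9 and 79.3 TPM in knockout clones, always above percentile 78. PLAUR was at 23.7, 20.2 and 60.9 TPM in WT and 19.8, 12.8 and 22.3 TPM in knockout clones, so that its groups overlapped in TPM.

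The balance of urokinase to its receptor was taken as the ratio of TPM within a library. PLAU over PLAUR was 1.62, 4.57 and 1.03 in WT clones 1 to 3, and 4.74, 5.40 and 3.56 in knockout clones 1 to 3. The knockout clones were alike, while WT clone 2 lay among them and the other 2 WT clones lay lower.

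**Figure D4:**
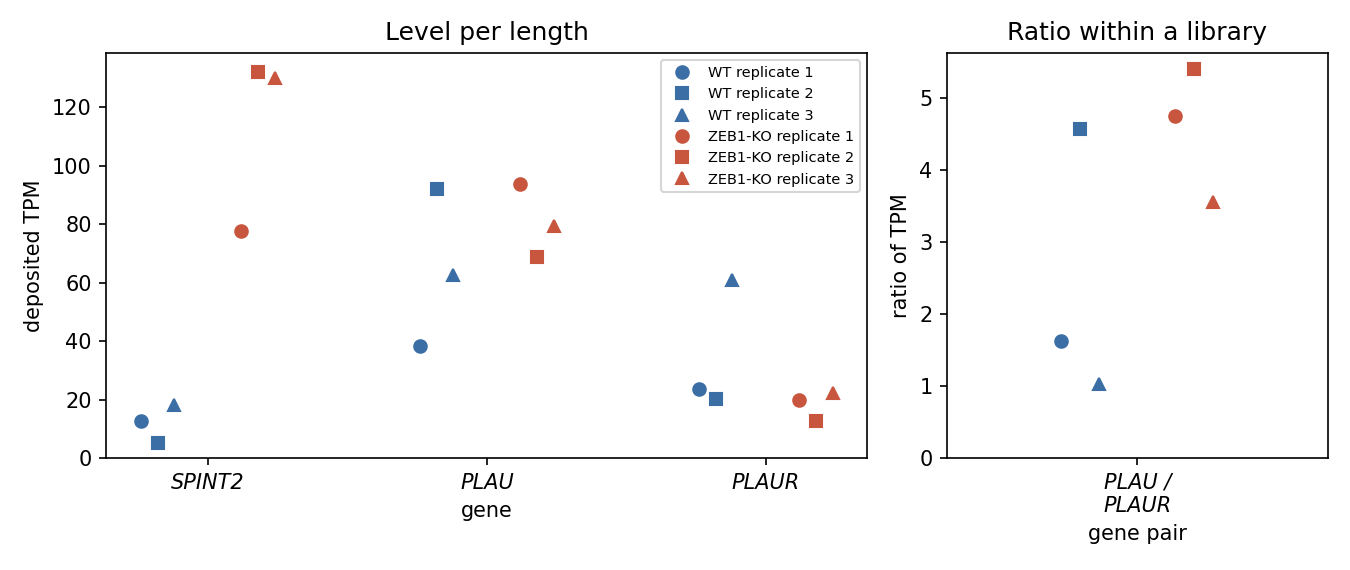
Deposited TPM of SPINT2, PLAU and PLAUR in each library (left) and the ratio of PLAU to PLAUR TPM within each library (right). SPINT2 lies between 5.13 and 18.3 TPM in WT and between 77.8 and 132 TPM in knockout clones, and PLAU over PLAUR is at least 3.56 in all knockout clones.

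The wider system was read from 89 genes in 6 functional lists, of which 37 entered the fit. Of the 37, 0 passed an adjusted p of 0.05 in the quasi-likelihood test. Before adjustment, 8 lay below 0.05 in that test. After adjustment, 5 were called by edgeR's likelihood ratio test and 4 by DESeq2. The matching shares over all genes were 17.7% before adjustment in the quasi-likelihood test, 4.52% with the likelihood ratio test and 7.12% with DESeq2. That last share leaves out genes without a DESeq2 adjusted p. The median log2 fold change of the 37 was 0.17, with 23 positive and 14 negative values. A positive value was found for 6753 of all 13659 genes tested. Groups without overlap were seen for 6 of the 37, against 23.6% of all genes tested.

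Other membrane-anchored serine proteases were nearly silent, like ST14 and TMPRSS4. Of 20 such genes 0 entered the fit, 7 had 0 counts in all libraries and 18 stayed under 10 counts in every library. Of all 26334 symbols, 13659 entered the fit and 23.7% had 0 counts in all libraries. The share of all symbols under 10 counts was not taken. HPN, the gene for hepsin, had 0 counts throughout, and TMPRSS2 had at most 5 counts in any library. Of the 10 other genes with Kunitz domains, 4 were tested and all 4 had negative log2 fold changes, with a median of -0.62, unlike SPINT2. Of these 4, 1 (APLP2) had an unadjusted p below 0.05 in the quasi-likelihood test. Among all 13659 genes tested, 6906 had a negative value. APLP2, which encodes a relative of the amyloid precursor protein, had 306, 470 and 479 CPM in WT, and 226, 273 and 215 CPM in knockout clones (adjusted p = 0.143 from the quasi-likelihood test). The Kunitz genes SPINT3 and SPINT4 had 0 counts in all 6 libraries.

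Among 9 serpins that act on these proteases, 4 were tested, 2 with positive and 2 with negative log2 fold changes and a median of -0.095. SERPINB2, the gene for PAI-2, had at most 4 counts in any library.

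Plasminogen itself (PLG) had 1 count in 1 library, and 10 of the 15 genes of its system were tested, 5 with positive and 5 with negative log2 fold changes. ANXA2, which with S100A10 forms a docking site for plasminogen and tPA, had 3787, 3767 and 3959 CPM in WT, and 1526, 2158 and 2276 CPM in knockout clones. All 3 knockout clones were lower, and the log2 fold change of -0.95 had an adjusted p of 0.108 in the quasi-likelihood test and of 0.0106 in DESeq2. ENO1, an enolase that can also bind plasminogen at the surface, had a log2 fold change of 0.68 with overlapping groups (adjusted p = 0.273 from the quasi-likelihood test).

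Substrates and receptors of the proteases had 14 tested members of 20, of which 12 had positive log2 fold changes, with a median of 0.33, and 4 had an unadjusted p below 0.05 in the quasi-likelihood test, as had 17.7% of all genes tested. These 4 were DSG2, a desmosomal cadherin (log2 fold change 2.77), MST1R, the receptor kinase RON (2.69), F2RL1, the gene for PAR2 (5.68), and F2R, the gene for PAR1 (1.10), with adjusted p-values from 0.0980 to 0.223. F2RL1 had 105, 1 and 4 counts in WT and 2707, 249 and 27 counts in knockout clones, so that the groups overlapped and knockout clone 1 was the highest library. Without knockout clone 1 its log2 fold change was 1.97 (adjusted p = 0.541). MET, the receptor for HGF, averaged 12.9 CPM ± 4.92 in WT clones and 16.2 CPM ± 2.46 in knockout clones (SD, n = 3 each), and HGF had 0 counts in every knockout library and 0, 7 and 2 counts in the WT libraries.

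**Figure D5:**
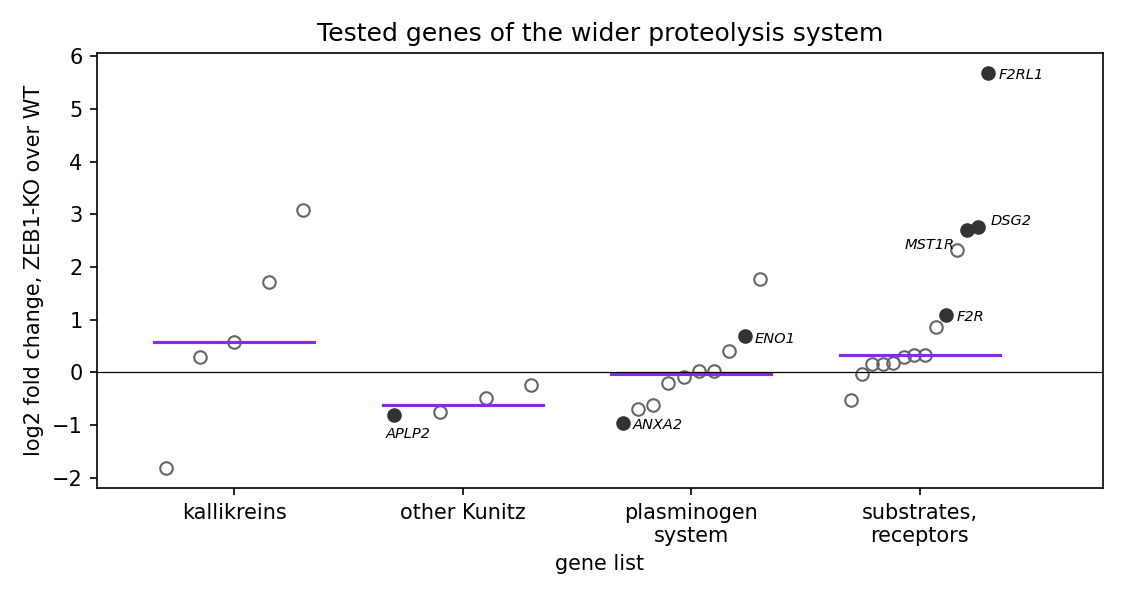
Log2 fold change (ZEB1-KO over WT) of the tested genes of 4 functional lists of the wider system, with a line at the median of each list; filled and named points have an unadjusted p below 0.05 in the quasi-likelihood test. The serpins are not drawn, nor are the other membrane-anchored serine proteases, of which 0 were tested, and F2RL1 at 5.68 is the highest point.

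The pattern of each gene over the 6 libraries was matched with all other tested genes by the distance between centred log2 CPM values. Closest to SPINT2 were CCDC64 (Pearson r = 0.990), DHDH (r = 0.984), a dihydrodiol dehydrogenase, and NEURL3 (r = 0.958). All 3 were higher in each knockout clone than in any WT clone, as were 11.9% of all genes tested. Picking genes for likeness to SPINT2 makes such a split likely, so it adds no support. In WT clones 1 to 3, CCDC64 had 13, 2 and 8 counts and NEURL3 had 7, 0 and 5. DHDH alone of the 3 passed the quasi-likelihood test, at 2.76 on the log2 scale (adjusted p = 0.0463). Its adjusted p was between 0.0690 and 0.190 when any 1 library was left out. Closest to PLAUR among the genes reported were ADCY5 (r = 0.994) and ALPK3 (r = 0.968), closest to PLAU were LAMC1 (r = 0.971), KPNA5 (r = 0.977) and C4orf33 (r = 0.994), and closest to PLAT were CD8A (r = 0.983), IFITM3 (r = 0.968) and ITGA3 (r = 0.928). These correlations describe 6 libraries that share the 2 groups, and the genes were picked for their likeness.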

How the data were processed

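Several kinds of values were deposited by the authors, per the file headers: whole-number counts for each gene symbol, TPM for 11013 genes, with equal column sums, and a table with log2 fold changes, log2 CPM, a likelihood ratio score, p-values and adjusted p-values. The submitters' processing notes name the aligner TopHat2 2.1.0, the counter HTSeq 0.6.1, the package edgeR 3.2.2 and the builds hg19 and GRCh37. Annotation, strand setting and gene lengths: not given in the sources used here.

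Counts were analysed here with edgeR 4.0.16 in R 4.3.3: filterByExpr (minimum count 10, total 15), TMM factors, and glmQLFTest on the group alone over all 6 libraries, two-sided, with Benjamini-Hochberg adjustment over 13659 genes at 0.05. The SE comes from the F statistic, and log2 CPM for pattern matching has a prior count of 2. Alternatives used DESeq2 1.42.0, limma 3.58.1, other scaling, filters and tests, the replicate number as a block, and each library left out. The tests were tried on simulated data. Libraries were compared for copies, the smallest chi-square per gene between any 2 being 92.3.

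The 8 genes and the lists were chosen with earlier results of these data known. Named genes are the 8, ZEB1, 8 preset genes, up to 3 per list with the smallest unadjusted p below 0.05, and the 3 closest in pattern to each gene in the fit. PPP1R14A, YIF1B, C10orf55, RN7SL368P, F2R, the KLK genes, SPINT3, SPINT4 and PLG, and the chromosomal neighbours were added after values were seen. Results of 2 genes that this rule names are not reported here. Ratios of SPINT1 or SPINT2 to ST14 and of PLAU to PLAT could not be formed, since the TPM table used here does not list ST14, SPINT1 or PLAT.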

Additional observations from a re-analysis of the deposited data

How the results depend on the processing

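SPINT2 kept its direction in all 19 alternatives, and 0 of the 8 genes passed 0.05 in the quasi-likelihood fit, against 1 (SPINT2) with library size alone, without a filter, with DESeq2, with the likelihood ratio and exact tests, with limma-voom, and with limma on TPM at either pseudocount or without a filter. Scaling by library size alone moved the median of all genes by 0.147 on the log2 scale, and relative to that median SPINT2 was at 2.96 there against 2.98 with TMM factors. Over all genes the count of calls was 24, against 134 without a filter, 935 with DESeq2, 617 with the likelihood ratio test, 566 with the exact test, 101, 94 and 80 with limma on log2(TPM + 1), on log2(TPM + 0.1) and on log2(TPM + 1) without a filter, and 5 to 25 when 1 library was left out. Of the wider proteolysis genes, 0 passed, against 2 without a filter, 4 with DESeq2, 5 with the likelihood ratio test and 4 with the exact test. Deviations from the group mean had correlations of 0.022, 0.007 and 0.224 between same-numbered libraries, for replicates 1, 2 and 3. The last, for replicate 3, was the highest between any WT and any ZEB1-KO library. Differently numbered libraries had correlations from -0.124 to 0.104, and WT replicate 1 correlated best with ZEB1-KO replicate 2. The numbers were not taken as pairs in the main fit. With the replicate number as a block, SPINT2 had a log2 fold change of 3.08 (adjusted p = 0.0655), 0 of the 8 genes passed and 20 genes were called in all, and the DHDH call was lost (adjusted p = 0.0852).

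Some of the named genes changed sign between settings, none of them past 0.05 in any setting. Leaving out 1 library gave log2 fold changes from -0.27 to 0.47 for PLAU, -0.42 to 0.30 for LAMC1, -0.41 to 0.54 for KPNA5, -0.24 to 0.31 for C4orf33, -0.77 to 0.16 for CD8A, -0.95 to 0.0059 for IFITM3, -0.40 to 0.88 for KLK6, -1.96 to 2.32 for KLK7 and -4.62 to 4.82 for SERPINE2. SERPINE2 was at 0.58 with limma-voom, 0.21 with log2(TPM + 1) with and without a filter, 0.49 with log2(TPM + 0.1) and 0.21 with the block. KLK8 was at 1.01 with limma-voom and 0.34 with log2(TPM + 0.1). LAMC1, KPNA5 and C4orf33 were at 0.023, 0.11 and 0.15 with library size alone, 0.18, 0.21 and 0.25 with log2(TPM + 1) with and without a filter, and 0.22, 0.34 and 0.30 with log2(TPM + 0.1). KPNA5 and C4orf33 were at 0.11 and 0.038 with limma-voom and at 0.078 and 0.034 with the block. The cause of these changes was not tested. At this depth the counts of SPINT1, ST14, TMPRSS4, PRSS8 and PLAT limit what can be said of them.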

Other observations

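Some secreted serine proteases of the kallikrein family had widely spread levels among clones of 1 group. KLK6 had 3.57, 1210 and 1488 CPM in WT replicates 1, 2 and 3 and 228, 1131 and 1953 CPM in ZEB1-KO replicates 1, 2 and 3. KLK5 had 0.344, 18.7 and 22.9 CPM in WT and 6.69, 267 and 79.9 CPM in ZEB1-KO clones. WT replicate 1 was the lowest of the 6 libraries for KLK5, KLK6, KLK7, KLK8 and KLK10, and ZEB1-KO replicate 1 was the lowest of its group for each of these 5. Of 15 kallikrein genes 5 were tested, and 0 of these passed an adjusted or an unadjusted p of 0.05 in the quasi-likelihood test, with 0 called by DESeq2. With the replicate number as a block, that test gave KLK5 an unadjusted p of 0.000511 and an adjusted p of 0.0876. KLK6, KLK7, KLK8 and KLK10 had unadjusted p-values of at least 0.155 in the blocked test.

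SERPINE2, the gene for protease nexin-1, an inhibitor of urokinase and other serine proteases, was high in 1 clone of each group. It had 23, 59 and 2784 counts in WT replicates 1, 2 and 3 and 43, 42 and 3045 counts in ZEB1-KO replicates 1, 2 and 3, so that replicate 3 was the high library in both groups (log2 fold change -0.23, adjusted p = 0.961 from the quasi-likelihood test).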
